A study of Mus musculus with 10 samples.

Results

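Interferon-stimulated genes are the genes that cells raise when an interferon, a secreted alarm signal of infection, binds its receptor. Type I interferons act through a complex that holds the transcription factors STAT2 and IRF9 and binds the interferon-stimulated response element (ISRE), and interferon gamma acts at GAS sites and through the factor IRF1. The products sense viral RNA and DNA, block viral replication, or feed peptides to class I major histocompatibility molecules, and fibroblasts hold many of these transcripts at a low level without any virus. The group described here holds 33 such genes chosen by name. Of these, 31 had a probe set with a single gene symbol, out of 18193 genes on the arrays, and where a gene had several, the probe set that was brightest on average over all 10 arrays stands for it. Isg15 and Ifi44 were not analysed here.

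The values came from 10 arrays of mouse cells in a study of Med23, a subunit of Mediator, which relays signals from DNA-bound factors to RNA polymerase. Fibroblasts (MEFs) of wild-type (WT) and Med23 knockout (KO) embryos of day 9.5, which had immortalised by themselves in culture, were sampled before serum (0 min) and 30 or 90 min into serum treatment, with 1 array each. The line 10T1/2, which comes from a mouse embryo and can form several mesenchymal cell types, gave 1 array each of an untreated control, MAL overexpression, Med23 knockdown, and both treatments together. MAL is an actin-regulated coactivator of the serum response factor SRF. The labels do not tell of more than 1 line of each genotype and name no vector or hairpin for the untreated 10T1/2 control, so genotype and line cannot be told apart in the MEFs, nor can a treatment and its delivery in 10T1/2 cells. No group had been given interferon, per the labels. No condition was repeated, so arrays that differ in 1 factor are compared in pairs, and p-values from limma rest on the residual spread of an additive model over the arrays of a line.

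Med23 itself read 6.90 to 7.39 on the log2 scale in WT MEFs and 2.91 to 3.30 in KO MEFs, and in 10T1/2 cells it read 5.45 and 5.67 without the knockdown against 4.24 and 3.94 with it. Array medians over all probe sets lay between 3.64 and 3.93, and a level below the median of its array is treated as low here because the table gives no detection call. Of 10 fibroblast markers, Thy1 was below the median in the MEFs and Fap on all 10 arrays, and the other 8 were above it on every array. Of these 8, 5 differed between genotypes in the fit described further on, with Col1a2 higher in KO MEFs (3.89) and S100a4, Pdgfrb, Fn1 and Pdgfra lower (-1.94, -1.39, -0.85 and -0.62), while Col1a1, Col3a1 and Vim did not pass. Among 12 leukocyte markers, 7 lay below the median on all WT, 8 on all KO and 5 on all 10T1/2 arrays, and the pan-leukocyte gene Ptprc read at most 3.20. Cd74 (4.78 to 5.82), Laptm5 (5.03 to 5.30), Csf1r (4.26 to 4.60) and Fcer1g (3.89 to 4.39) lay above it on every MEF array. None of these passed between genotypes. The macrophage gene Cd68 moved with genotype, at 4.0 to 4.47 in WT and 2.96 to 3.27 in KO MEFs, below the medians in the latter, as did the endothelial gene Emcn, at 2.73 to 3.10 and 4.95 to 5.38. Emcn stood alone in this. Of 6 endothelial markers, 5 lay below the median on all WT and 4 on all KO arrays, and Kdr did not pass (-0.05, adjusted p = 0.792). The part of these markers in the results was not tested. The summed linear level of these leukocyte markers was 201.03 to 222.01 in WT MEFs and 166.67 to 201.58 in KO MEFs. In such bulk RNA, fewer cells of a type and less RNA per cell cannot be told apart.

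The median level of the 31 genes was 4.94 before serum, 4.86 at 30 min and 4.61 at 90 min in WT MEFs, and 5.89, 5.89 and 5.16 in KO MEFs. Control 10T1/2 cells gave 5.93, MAL alone 5.30, knockdown alone 5.42 and the combination 5.22. The median over all genes stayed between 4.62 and 5.00 on the same arrays. Of the 31 genes, 18 were above the array median on all 10 arrays. Mx1, a dynamin-like antiviral GTPase, lay below it on all 10, with 3.67 as its highest value. Ifih1, Zbp1 and Oasl2 were below the median on all 4 10T1/2 arrays, and Oasl1 on all 6 MEF arrays.

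**Figure D1:**
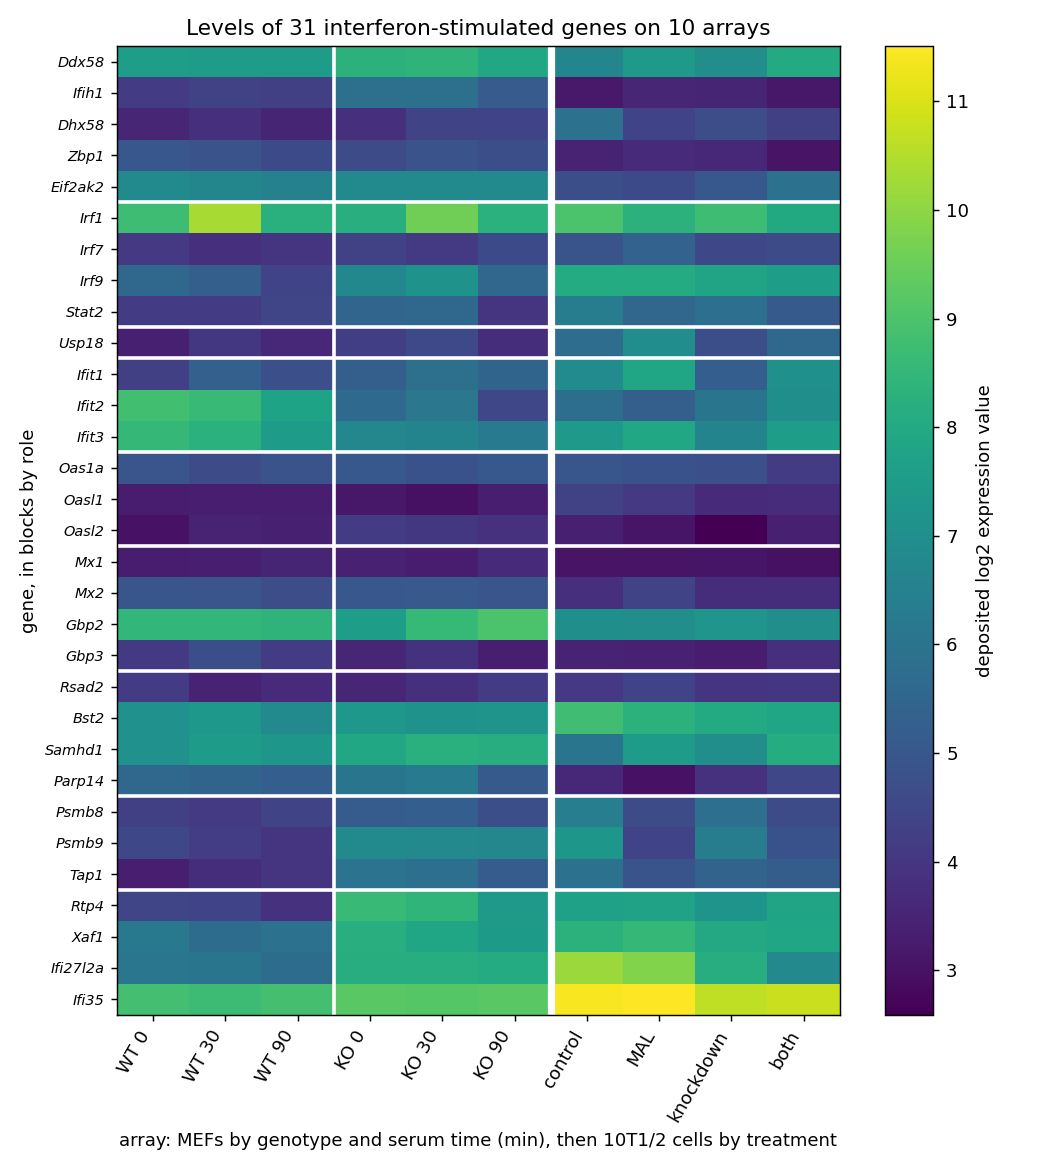
Deposited log2 expression value of each of the 31 measured interferon-stimulated genes (rows, in blocks by role) on each of the 10 arrays (columns; WT and KO MEFs by serum time in min, then 10T1/2 cells by treatment). The scale runs from 2.59 to 11.51, with Ifi35 brightest in 10T1/2 cells, Ifit2 and Ifit3 brighter in WT than in KO MEFs, and Rtp4 brighter in KO MEFs.

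KO MEFs were first set against WT MEFs. Of 33 members, 29 passed the filter on low values (highest level on the 6 arrays above 3.90), and 14 were higher and 3 lower in KO MEFs at an adjusted p below 0.05. That is 58.6% of those tested, where 42.1% of all 11933 genes were called, 21.2% higher and 20.8% lower. The median coefficient (KO minus WT) was 0.49 over the members and -0.02 over all genes. WT and KO levels did not overlap for 13 members with higher and 3 with lower KO levels, where 20.5% and 20.7% of all genes showed this.

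**Figure D2:**
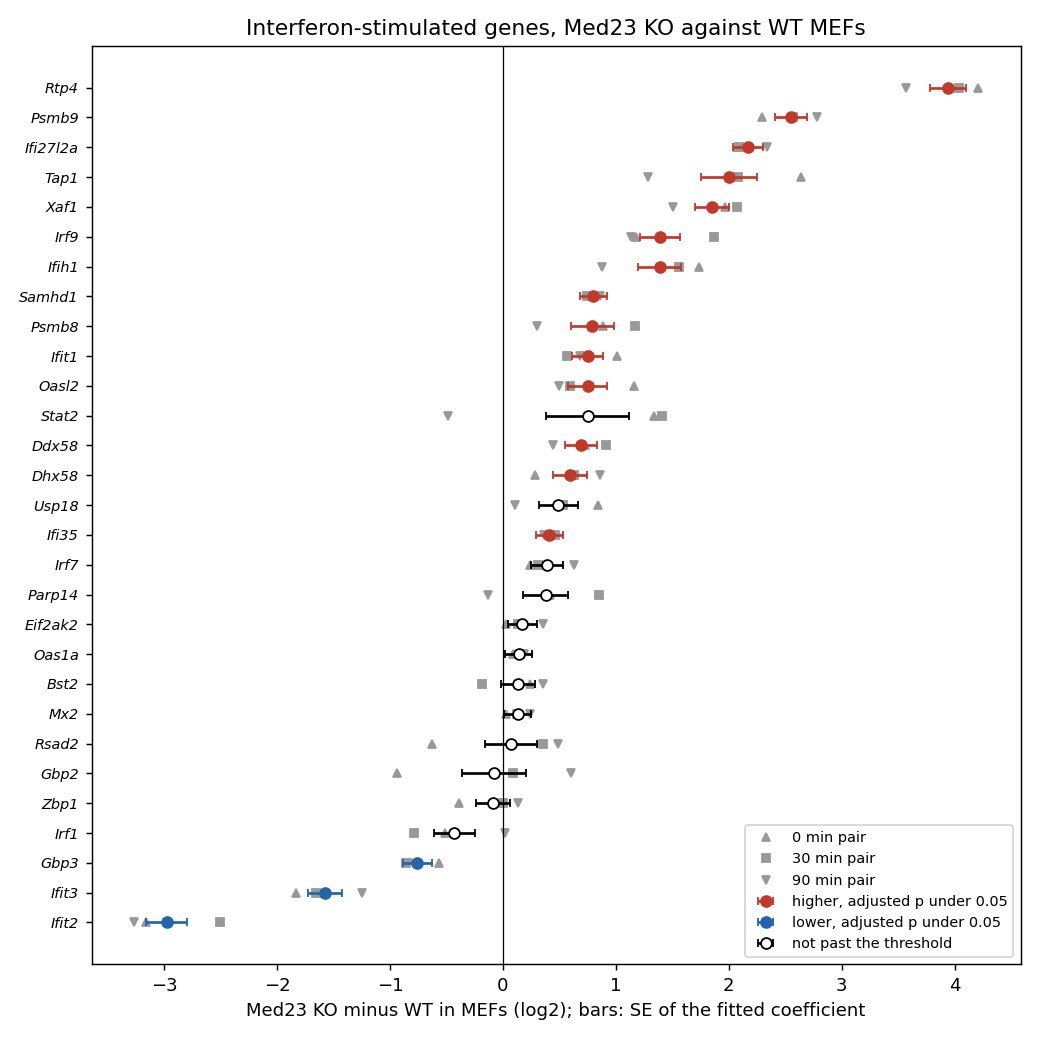
Difference between Med23 KO and WT MEFs (log2) for the 29 tested members, with the fitted coefficient and its SE as a bar and the 3 pairs of arrays at the same serum time as grey marks. Rtp4 (3.94) stands at the top and Ifit2 (-2.98) at the bottom, and the pairs of Stat2 lie on both sides of 0.

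The sensors of viral nucleic acid held 3 higher genes among 5. Ifih1, which encodes the RNA sensor MDA5, read 4.15, 4.32 and 4.28 in WT MEFs (in the order 0, 30, 90 min, as for every gene that follows) and 5.89, 5.88 and 5.16 in KO MEFs. Every KO level was above every WT level, and the coefficient was 1.39 (SE 0.19, n = 3 pairs, 2.63-fold, adjusted p = 0.00228). Ddx58, the gene of the RNA sensor RIG-I, read 7.59, 7.49 and 7.49 in WT and 8.32, 8.40 and 7.93 in KO MEFs (coefficient 0.69, SE 0.14, adjusted p = 0.0104). Averaged over its 3 probe sets Ddx58 gave 0.34 and adjusted p = 0.0749. Dhx58, which encodes LGP2, a regulator of both sensors, lay below the median on all WT arrays and gave 0.59 (SE 0.15, adjusted p = 0.0238). With low levels raised to the array median, Dhx58 stood at 1.25-fold and did not pass (adjusted p = 0.161). The DNA sensor gene Zbp1 (-0.09) and the kinase gene Eif2ak2 (0.17), whose product PKR halts translation when it binds double-stranded RNA, did not pass (adjusted p = 0.675 and 0.341). For Eif2ak2, the mean of its 3 probe sets gave 0.37 and adjusted p = 0.028.

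Among the 4 transcription factor genes, Irf9 was the 1 that passed. It encodes the DNA-binding part of the complex formed under type I interferon, and it read 5.58, 5.29 and 4.40 in WT and 6.76, 7.16 and 5.53 in KO MEFs. KO was higher at each serum time, though the KO level at 90 min fell below the WT level at 0 min, and the coefficient was 1.39 (SE 0.18, n = 3 pairs, 2.63-fold, adjusted p = 0.00184). Its partner Stat2 read 4.17, 4.17 and 4.45 in WT and 5.51, 5.58 and 3.96 in KO MEFs. With the probe set used, Stat2 was thus higher in KO at 0 and 30 min and lower at 90 min, and it did not pass (0.75, SE 0.37, adjusted p = 0.157). A fit without the 90 min arrays gave 1.38 and adjusted p = 0.00509, while without the 0 min or the 30 min arrays Stat2 did not pass (up to 0.557). A further probe set of Stat2 read 4.01, 3.48 and 3.63 in WT and 5.28, 4.97 and 4.82 in KO MEFs. It was higher in KO at each time, by 1.32 on average, and lay below the array median on 2 MEF arrays. The mean of both probe sets passed (1.03, adjusted p = 0.0172). Irf1 and Irf7, an early and an amplifying factor of the response, gave -0.43 and 0.39 and did not pass (adjusted p = 0.106 and 0.0621), although Irf1 passed without the 90 min arrays (-0.65, adjusted p = 0.0283). Usp18, whose product removes ISG15 from proteins and restrains the receptor, gave 0.49 and did not pass (adjusted p = 0.059), with 0.69 and adjusted p = 0.0276 without the 90 min arrays. Usp18 lay below the array median on 2 WT arrays and 1 KO array, and with low levels raised it gave 0.27. Without the 0 min or the 30 min arrays neither Irf1 nor Usp18 passed (adjusted p up to 0.455 and 0.325).

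The Ifit genes, neighbours on chromosome 19 whose products bind viral RNA, went both ways. Ifit2 read 8.81, 8.65 and 7.76 in WT MEFs and 5.65, 6.14 and 4.49 in KO MEFs. All 3 KO levels lay below all 3 WT levels, and the coefficient was -2.98 (SE 0.18, n = 3 pairs, 7.89-fold lower, adjusted p = 9.3e-05). Ifit3 read 8.54, 8.28 and 7.50 in WT and 6.71, 6.62 and 6.25 in KO MEFs, again without overlap (-1.58, SE 0.15, 2.99-fold lower, adjusted p = 0.000604). Ifit1 read 4.28, 5.32 and 4.78 in WT and 5.29, 5.89 and 5.46 in KO MEFs, with KO higher at each time but the groups overlapping (0.75, SE 0.14, adjusted p = 0.00738).

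The stretches before the starts of these genes are shown because the neighbours differ in direction. They are from RefSeq on build GRCm38.p6, plus strand, each ending at the base before the annotated start, and hold no transcribed base. Capitals mark the ISRE core (GAAA, any 2 bases, GAAA, searched on both strands) in Ifit1 (chr19:34640689-34640888) and Ifit3 (chr19:34583329-34583528) and the GAS motif TTCNNNGAA in Ifit2 (chr19:34550444-34550693).
Ifit1: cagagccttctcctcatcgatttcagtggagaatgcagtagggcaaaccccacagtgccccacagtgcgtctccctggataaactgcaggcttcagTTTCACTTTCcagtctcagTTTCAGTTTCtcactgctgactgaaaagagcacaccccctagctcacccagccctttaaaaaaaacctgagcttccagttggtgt
Ifit3: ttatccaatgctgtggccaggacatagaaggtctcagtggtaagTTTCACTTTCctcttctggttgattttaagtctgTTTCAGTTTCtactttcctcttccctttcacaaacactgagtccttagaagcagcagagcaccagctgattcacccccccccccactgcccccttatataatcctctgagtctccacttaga
Ifit2: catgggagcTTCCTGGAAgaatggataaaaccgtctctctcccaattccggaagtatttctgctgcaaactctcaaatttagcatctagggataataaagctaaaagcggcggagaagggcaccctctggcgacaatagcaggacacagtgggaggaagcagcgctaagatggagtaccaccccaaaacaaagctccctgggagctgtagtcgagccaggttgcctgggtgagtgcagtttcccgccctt
Ifit1 and Ifit3 each held 2 ISRE cores, with the same letters in both genes, yet they moved in opposite directions in KO MEFs. Of the 31 measured members, 23 had a window of 250 bases before to 50 after a start in the RefSeq table, and 11 of them (47.8%) held an ISRE core, where 3.99% of all 27025 genes did. For the GAS motif, which reads the same on both strands, the numbers were 8 of 23 (34.8%) and 9.55%, and the motifs can overlap, as in Bst2. A match is only a run of letters, and windows without one may hold other forms of a site.

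The Oas genes encode synthetases that activate RNase L and relatives without that activity. Oas1a, at 4.67 to 5.06 in MEFs and above the median on all 10 arrays, gave 0.14 and did not pass (adjusted p = 0.382). Oasl2 gave 0.75 (SE 0.17, adjusted p = 0.0141), but its WT levels of 3.03 to 3.44 were all below the array medians. With low levels raised, Oasl2 stood at 0.13, or 1.09-fold, and did not pass (adjusted p = 0.358). Oasl1 and Mx1 did not enter the fit. Mx2, the cytoplasmic relative of Mx1, gave 0.13 (adjusted p = 0.442).

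The guanylate-binding protein genes encode GTPases that attack the vacuoles of intracellular pathogens. Gbp3 read 4.12, 4.74 and 4.18 in WT and 3.55, 3.88 and 3.34 in KO MEFs, without overlap (-0.76, SE 0.13, adjusted p = 0.0055). These levels were near the array medians, and raised to them Gbp3 gave -0.45 and did not pass (adjusted p = 0.107). Gbp2 read 8.51, 8.49 and 8.40 in WT MEFs and 7.57, 8.58 and 9.0 in KO MEFs, so KO was lower at 0 min and higher at 90 min, and the coefficient of -0.08 did not pass (adjusted p = 0.84). A further probe set of Gbp2 gave 0.17.

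Of the other antiviral effectors, Samhd1 passed. It encodes a phosphohydrolase that lowers the nucleotide pool, and it read 7.09, 7.51 and 7.30 in WT and 7.90, 8.25 and 8.16 in KO MEFs, without overlap (0.80, SE 0.12, adjusted p = 0.00327). Its other 4 probe sets gave differences from -0.01 to 0.25, and the mean of all 5 did not pass (0.24, adjusted p = 0.102). Bst2, which encodes the tether of budding virions tetherin, gave 0.13, and Rsad2, the gene of the radical SAM enzyme viperin, 0.07 (adjusted p = 0.52 and 0.836). Parp14, an ADP-ribosyltransferase gene, gave 0.38 (adjusted p = 0.18) and passed without the 90 min arrays (0.64, adjusted p = 0.0444). It did not pass without the 0 min or the 30 min arrays (adjusted p up to 0.662).

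All 3 genes of peptide processing were higher in KO MEFs. Psmb8 and Psmb9 encode catalytic subunits of the immunoproteasome, which cuts proteins into peptides for class I molecules, and Tap1 encodes a subunit of the transporter that brings these peptides into the endoplasmic reticulum. Psmb9 read 4.53, 4.21 and 3.93 in WT and 6.82, 6.78 and 6.71 in KO MEFs. The groups were more than 2 units apart (2.55, SE 0.14, n = 3 pairs, 5.84-fold, adjusted p = 7.1e-05). Tap1 read 3.33, 3.76 and 3.92 in WT and 5.97, 5.84 and 5.20 in KO MEFs (2.00, SE 0.25, adjusted p = 0.0017). Its pairs differed by 2.64, 2.08 and 1.28, and the fit with low levels raised gave 3.39-fold. Psmb8 read 4.28, 4.09 and 4.42 in WT and 5.17, 5.26 and 4.72 in KO MEFs (0.79, SE 0.19, adjusted p = 0.0181). Neither gene's groups overlapped, and both KO levels were lowest at 90 min. Further probe sets, all below the median on the 6 MEF arrays, gave -0.12, 0.39 and -0.02 for Tap1 and 0.02 for Psmb8.

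Psmb9 and Tap1 lie head to head on chromosome 17, and the 225 bases between their annotated starts are shown because both genes moved together (chr17:34187331-34187555, build GRCm38.p6, RefSeq, plus strand, from the Psmb9 start at the left to the Tap1 start at the right). Capitals mark the GC box GGGCGG, searched on both strands, which 38.2% of all genes held in their windows.
Psmb9-Tap1: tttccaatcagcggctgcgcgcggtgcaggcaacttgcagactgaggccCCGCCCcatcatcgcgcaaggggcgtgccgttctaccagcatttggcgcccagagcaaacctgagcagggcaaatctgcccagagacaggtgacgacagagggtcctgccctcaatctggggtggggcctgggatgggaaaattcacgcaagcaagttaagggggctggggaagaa
The stretch held 1 GC box. The windows of Psmb9 and Tap1 held neither the ISRE core nor TTCNNNGAA, and that of Psmb8, the next gene beyond Tap1, held 1 GAS motif.

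The 4 measured genes of less defined role all rose, and they included the largest increase. Rtp4, a receptor transporter family gene, read 4.44, 4.38 and 3.85 in WT and 8.65, 8.42 and 7.42 in KO MEFs. The lowest KO level was well above the highest WT level (3.94, SE 0.16, n = 3 pairs, adjusted p = 2.15e-05). The pairs differed by 4.21, 4.04 and 3.57, and the fit with low levels raised gave 15.1-fold. A further probe set of Rtp4, below the median on all 6 MEF arrays, gave 0.17. Ifi27l2a, which encodes a small mitochondrial and nuclear membrane protein, read 6.08, 6.06 and 5.73 in WT and 8.15, 8.15 and 8.07 in KO MEFs (2.17, SE 0.13, 4.49-fold, adjusted p = 8.67e-05). Xaf1, whose product binds the apoptosis inhibitor XIAP, read 6.21, 5.76 and 5.93 in WT and 8.18, 7.83 and 7.44 in KO MEFs (1.85, SE 0.15, 3.61-fold, adjusted p = 0.000332). A further probe set of Xaf1 also stood higher in KO MEFs, by 3.28. Ifi35 gave 0.41 (SE 0.12, adjusted p = 0.0359), and the mean of its 3 probe sets, 0.22, did not pass (adjusted p = 0.134).

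The fit was repeated 9 times, each time without 1 serum time or 1 array. These fits amount to 3 checks, 1 per serum time, since an array without its partner adds nothing to the genotype coefficient. Of the 17 calls, 10 held in each of the 9 fits, namely Ifih1, Irf9, Ifit2, Ifit3, Samhd1, Psmb9, Tap1, Rtp4, Xaf1 and Ifi27l2a. The other 7 lost it in at least 1 of these fits. Ddx58, Oasl2, Psmb8 and Ifi35 lost it in 6 of 9, without the 0 min arrays (adjusted p = 0.0789, 0.0987, 0.108 and 0.183) or the 30 min arrays (0.0929, 0.0735, 0.131 and 0.18). Ifit1 lost it in 3 (0.0708 without the 0 min arrays), Gbp3 in 3 (0.0623 without the 30 min arrays) and Dhx58 in 8 (0.14 without the 30 min and 0.0719 without the 90 min arrays). With no term for serum time, Dhx58, Irf9, Ifit1, Gbp3 and Ifi35 did not pass (adjusted p = 0.0813, 0.0785, 0.113, 0.0549 and 0.0669).

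Other genes of the pathway were taken from lists of named genes. Of the ligand, receptor and signalling genes, 30 of 35 were tested, with 5 higher and 7 lower in KO MEFs and a median of -0.07. The share called, 40.0%, was near the 42.1% of all genes. The interferon beta gene Ifnb1 lay below the median on all 10 arrays (3.10 to 3.55). Its receptor chain gene Ifnar1 was lower in KO MEFs (-0.63, SE 0.12, n = 3 pairs, adjusted p = 0.00834), and Ifnar2 gave -0.06, with WT levels of 8.0 to 8.28 and KO levels of 7.98 to 8.13. Ifngr1, a chain of the interferon gamma receptor, and Il10rb, a chain shared with the interferon lambda receptor, were lower (-1.41 and -1.16, adjusted p = 0.00197 and 0.000807), as was the RNA sensor gene Tlr3 (-1.02, adjusted p = 0.00529), which was below the median on all KO arrays and gave -0.30 with low levels raised. Cited1, a transcriptional coregulator, rose from 3.44 to 3.93 in WT to 10.27 to 10.59 in KO MEFs (6.78, at least 6.52 with low levels raised, adjusted p = 3.19e-06), and Ikbke and Stat3 by 1.04 and 0.90 (adjusted p = 0.00179 and 0.00241).

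Of 23 class I antigen presentation genes beside Psmb8, Psmb9 and Tap1, 17 were tested, with 7 higher and 2 lower in KO MEFs and a median of 0.37, a share of 52.9% called beside 42.1% of all genes (21.2% higher, 20.8% lower). The heavy chain genes H2-D1 and H2-K1 read 5.75 to 6.52 and 5.61 to 6.0 in WT MEFs against 9.90 to 10.14 and 9.14 to 9.42 in KO MEFs (3.77 and 3.44, adjusted p = 2.83e-05 and 3.51e-05). Both are measured by probe sets of type x_at, which can bind near-identical genes of that family, so which of them is read is uncertain. Tap2, the partner of Tap1, rose by 2.94 (SE 0.18, adjusted p = 0.000106), Nlrc5, the transactivator of class I genes, by 2.17 (at least 1.35 with low levels raised, adjusted p = 0.000449), and the proteasome activator gene Psme1 by 1.08 (adjusted p = 0.00148). Pdia3, which encodes a disulfide isomerase of the loading complex, fell by 1.07 on the log2 scale (adjusted p = 0.00107).

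Of 91 further interferon-stimulated genes, 64 were tested, with 26 higher and 13 lower in KO MEFs and a median of 0.19, a share of 60.9% called beside the same 42.1% of all genes (21.2% higher, 20.8% lower). Trim30a, a regulator of inflammatory signalling, read 3.10 to 3.91 in WT and 9.81 to 10.48 in KO MEFs (6.78, at least 6.31 with low levels raised, adjusted p = 3.19e-06). The DNA-binding protein gene Ifi202b, which is known to vary between inbred strains, read 3.18 to 3.55 in WT and 8.08 to 8.84 in KO MEFs (4.96, at least 4.46, adjusted p = 1.04e-05). The interferon-inducible GTPase genes Iigp1 and Ifi47 rose by 2.29 and 2.25 (adjusted p = 0.00362 and 0.00016), the first by at least 1.58 with low levels raised. Ly6e fell by 2.96 on the log2 scale (adjusted p = 3.06e-05), and so did the chemokine gene Cxcl10, by 3.24 (SE 0.66, adjusted p = 0.0102).

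Serum was the second factor in the MEFs. At 30 min, 0 of 29 members passed, where 0.251% of all genes did (limma), and 4 had an unadjusted p below 0.05, where 7.99% of all genes had. Irf1, which serum and growth factors are known to raise early, read 8.73 and 10.36 in WT and 8.22 and 9.57 in KO MEFs at 0 and 30 min. It stood higher at 30 min in both genotypes, by 1.63 and 1.35 (1.49, SE 0.22, n = 2 pairs, adjusted p = 0.0986), and with a variance trend in limma it passed (adjusted p = 0.0414). By 90 min it was back at 8.26 in WT and 8.28 in KO MEFs. Ifit1 stood 1.04 higher at 30 min in WT and 0.60 in KO MEFs and did not pass (0.82, SE 0.17, adjusted p = 0.227).

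At 90 min, 3 of 29 members were lower and 0 higher, where 8.95% and 4.56% of all genes were, and the median was -0.16 against -0.11 over all genes. Irf9 changed by -1.18 from 0 to 90 min in WT and by -1.23 in KO MEFs (-1.21, SE 0.22, n = 2 pairs, adjusted p = 0.0226). Ifit2 changed by -1.05 and -1.16 (-1.10, SE 0.22, adjusted p = 0.0274), and Rtp4 by -0.59 and -1.23 (-0.91, SE 0.20, adjusted p = 0.0344). Ifit3 gave -0.75 and missed the threshold (adjusted p = 0.0504). The 3 calls rest on the whole set of arrays, since of 7 fits that left out arrays Irf9 and Ifit2 lost the call in 7 and Rtp4 in 6. Without the 30 min arrays the adjusted p was 0.0601 for Irf9, 0.0645 for Ifit2 and 0.116 for Rtp4. The change from 0 to 90 min differed by more than 1 between the genotypes for 4 members: Stat2 (0.28 in WT and -1.55 in KO MEFs), Tap1 (0.59 and -0.77), Gbp2 (-0.11 and 1.43) and Rsad2 (-0.53 and 0.59). These are differences of single arrays and were not tested. For Stat2 the difference depends on the probe set. A further one read 4.01 at 0 and 3.63 at 90 min in WT MEFs, against 5.28 and 4.82 in KO MEFs. Rsad2 lay below the array median on 4 of the 6 MEF arrays and Tap1 on 2. Both further probe sets of Rsad2 lay below it on all 6.

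**Figure D3:**
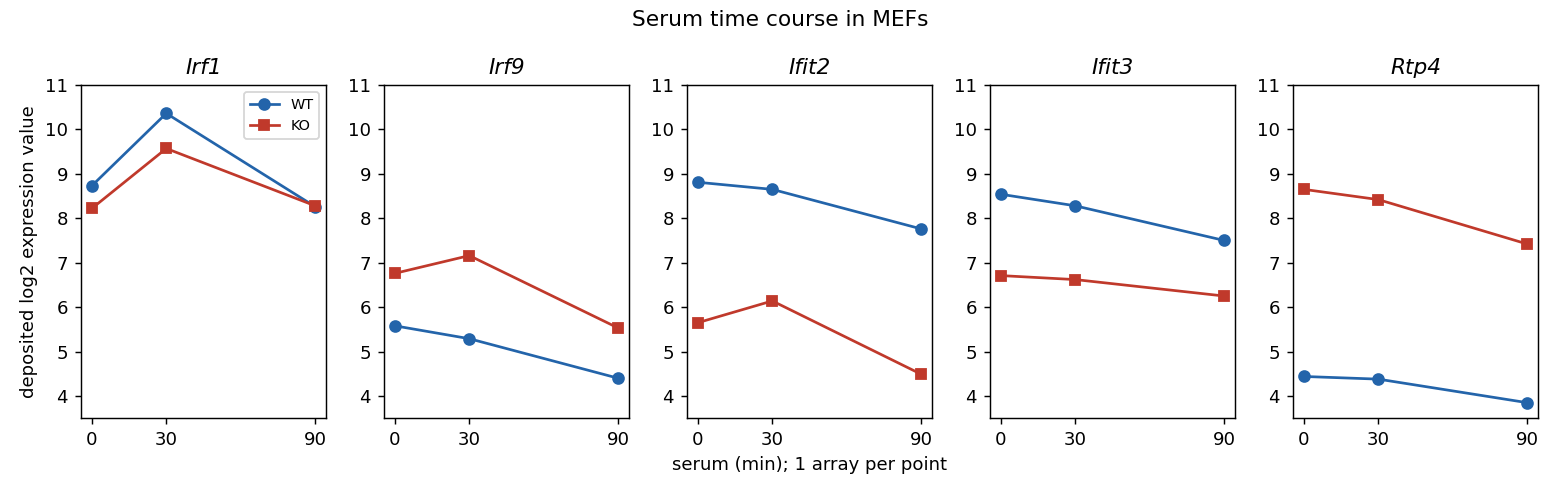
Deposited log2 expression value of 5 members at 0, 30 and 90 min of serum in WT and KO MEFs, with 1 array per point. Irf1 peaks at 30 min in both genotypes (10.36 and 9.57), and Irf9, Ifit2, Ifit3 and Rtp4 are lowest at 90 min in both.

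In 10T1/2 cells the overexpression of MAL addressed genes that SRF and its coactivator govern. Of 33 members, 27 passed the filter on low values (highest level above 3.67), and 0 passed the test (limma), where 0.0643% of all 12440 genes did. An unadjusted p below 0.05 was found for 5 members that stood higher and 6 that stood lower, 11 of 27, where 27.6% of all genes had one (13.9% higher, 13.7% lower). After quantile normalization 9 members passed, 4 higher and 5 lower, beside 2014 of all genes. The fit leaves 1 residual degree of freedom, and values of each pair are therefore given. The median of 15 poly-A control probe sets was 7.94 in control cells, 7.29 under MAL, 7.22 under knockdown and 6.65 under the combination, and its part in the results of these cells was not tested.

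Peptide processing genes stood lowest with MAL. Psmb9 read 7.32 in the control and 4.40 with MAL, and 6.36 with the knockdown and 4.83 with both. Both arrays with MAL lay below both without it (-2.23, SE 0.36, n = 2 pairs, adjusted p = 0.0688). Psmb8 read 6.40 and 4.64, then 5.85 and 4.62 in the same order (-1.50, SE 0.22, adjusted p = 0.0684), and Tap1 read 5.93 and 4.92, then 5.42 and 5.22 (-0.61, SE 0.26, adjusted p = 0.21). Psmb8 and Psmb9 were the members lower by at least 1 in both pairs, as were 1.92% of all genes. Of the 16 class I genes tested for MAL, 0 passed, 3 had a positive and 13 a negative coefficient, and the median was -0.17 against -0.03 over all genes. Chosen after their values were seen, Tap2 stood at 8.25 and 5.70, then 7.31 and 6.20 (-1.83, SE 0.37, adjusted p = 0.0788), the tapasin gene Tapbp gave -1.25 (adjusted p = 0.0684) and the third immunoproteasome subunit gene Psmb10 -0.89 (adjusted p = 0.0842). The constitutive counterparts Psmb5 and Psmb7 gave -0.07 and 0.35 (adjusted p = 0.843 and 0.285), and Psmb6 read 11.71 on both arrays without the knockdown and 10.99 on both with it. Cd74, a leukocyte marker that encodes the class II invariant chain, moved with them, at 6.58 and 6.19 without MAL and 4.10 on both arrays with it, while Ptprc read 2.58 to 2.80 on the 4 arrays. The part of Cd74-bearing cells in the change was not tested. Of the 12 leukocyte markers, 5 lay below the median on all 4 arrays and 7 were tested, of which 0 passed, and their summed linear level ran from 173.91 to 255.1. Csf1r (4.72 to 4.95), Laptm5 (4.51 to 4.74) and Lyz2 lay above the medians on all 4, and Lyz2, at 4.58 and 4.62 without the knockdown and 5.27 and 5.24 with it, moved with the knockdown (0.66, adjusted p = 0.102).

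**Figure D4:**
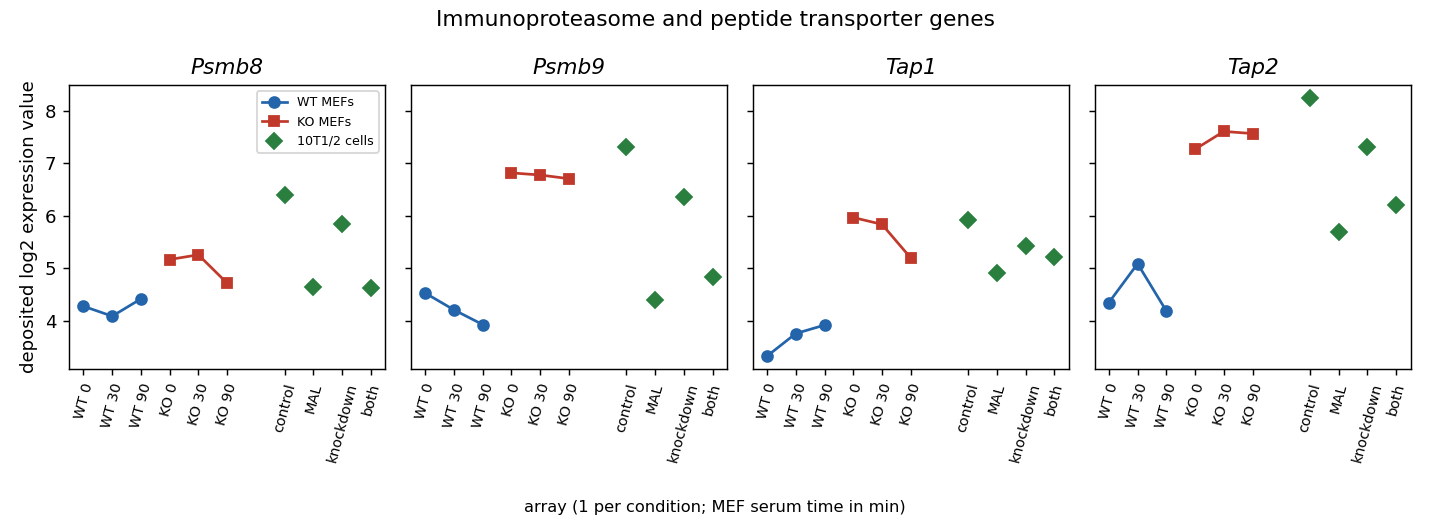
Deposited log2 expression value of Psmb8, Psmb9, Tap1 and the related Tap2 on the 10 arrays, with 1 point per condition (WT and KO MEFs at 0, 30 and 90 min of serum, and the 4 10T1/2 conditions). KO MEFs lie above WT MEFs in all 4 genes, and in 10T1/2 cells the arrays with MAL lie below those without it.

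Members that stood higher with MAL were led by Ifit1 and Samhd1. Ifit1 read 6.90 in the control and 7.88 with MAL, and 5.26 with the knockdown and 7.07 with both (1.40, SE 0.26, n = 2 pairs, adjusted p = 0.0748). Samhd1 read 6.06 and 7.51, then 7.0 and 8.11 (1.28, SE 0.20, adjusted p = 0.0685), and was the member higher by at least 1 in both pairs, as were 1.85% of all genes. Its other 4 probe sets gave -0.04 to 0.09. Usp18 read 5.78 and 6.95, then 4.74 and 5.59 (1.01, SE 0.20, adjusted p = 0.0759), and Ddx58 6.67 and 7.41, then 7.01 and 8.05 (0.89, SE 0.19, adjusted p = 0.0843). Stat2 and Irf1 went the other way, with -0.78 and -0.69 (adjusted p = 0.0927 and 0.108).

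For the knockdown of Med23 in 10T1/2 cells, 0 members passed, as did 0.0% of all genes (limma). An unadjusted p below 0.05 was found for 8 members that stood lower and 3 that stood higher, 11 of 27, where 31.9% of all genes had one (14.7% lower, 17.2% higher). After quantile normalization 5 passed, 1 higher and 4 lower, beside 2472 of all genes. The median was -0.38 over the members and -0.08 over all genes. Ifi27l2a read 10.16 in the control and 8.16 with the knockdown, and 9.83 with MAL and 6.78 with both. Both arrays with the knockdown lay below both without it (-2.52, SE 0.30, n = 2 pairs, adjusted p = 0.0689). Usp18 gave -1.20 (SE 0.20, adjusted p = 0.0689), and these were the members lower by at least 1 in both pairs, as were 0.707% of all genes, while 0 members were higher by that much, as were 3.17% of all genes. Ifit1 gave -1.23, from -1.64 in the pair without MAL and -0.81 in the pair with it (SE 0.26, adjusted p = 0.0805), and Ifi35 gave -0.73 (adjusted p = 0.0926). Its 3 probe sets gave -0.83, -0.73 and -0.66.

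On the other side, Eif2ak2 read 4.73 and 5.05 without MAL and 4.60 and 5.91 with it (0.81, SE 0.29, adjusted p = 0.14), and its 2 further probe sets gave 1.38 and 1.88. The first of these lay below the array median on 2 arrays and the other on 1, without the knockdown in each case. Ifit2 read 5.82 and 6.05 without MAL and 5.30 and 7.03 with it (0.98, SE 0.39, adjusted p = 0.163), Parp14 gave 0.89 and Samhd1 0.77 (adjusted p = 0.144 and 0.0937). Further probe sets of Samhd1 gave -0.08, -0.15, 0.66 and 0.41. For Ifit3 the knockdown gave -0.57 (adjusted p = 0.14), and the Ifit genes were not tested against each other. Xaf1 gave -0.49 with its main probe set, which read 7.86 to 8.52 in these cells, whereas its further probe set read 2.72 to 2.87, below the medians, so its levels in the lines depend on the probe set.

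Whether loss of Med23 went with the same change in both lines was tested by 1 model over all 10 arrays. Of 30 members tested, 16 differed, where 29.3% of all 13034 genes did. The effect in 10T1/2 cells was lower for 13 and higher for 3, where 13.7% and 15.6% of all genes were. The sources used here do not say if the lines were normalized jointly. Ifi27l2a was the clearest case, with 2.17 in the MEFs and -2.52 in 10T1/2 cells (difference -4.69, SE 0.32, adjusted p = 7.58e-05). Its KO levels lay above all WT levels in 3 of 3 pairs, and its knockdown levels were lower in 2 of 2 pairs. Ifit2 went the opposite way, with -2.98 and 0.98 (difference 3.96, SE 0.44, adjusted p = 0.0007). Rtp4, at 3.94 and -0.20, differed by -4.14 (SE 0.28, adjusted p = 7.54e-05), and Psmb9, at 2.55 and -0.26, by -2.81 (SE 0.39, adjusted p = 0.00201). With the probe sets used, Ddx58 and Samhd1 stood higher after Med23 loss in both lines, though neither passed for the knockdown (adjusted p = 0.164 and 0.0937). The difference between lines did not pass for either (-0.20, SE 0.23, and -0.03, SE 0.21, adjusted p = 0.558 and 0.923). Further probe sets of Samhd1 gave -0.15 to 0.66 for the knockdown.

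Of 26 members tested in both lines, 17 had a positive coefficient in the MEFs with a negative 1 in 10T1/2 cells, 3 the reverse, 4 were positive in both and 2 negative in both. Over the 11230 genes tested in both lines, 45.1% had opposite signs. Signs of coefficients that did not pass are part of these counts. Med23 itself differed by -3.97 in the MEFs and -1.47 in 10T1/2 cells, and the part of this in the difference between lines was not tested.

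**Figure D5:**
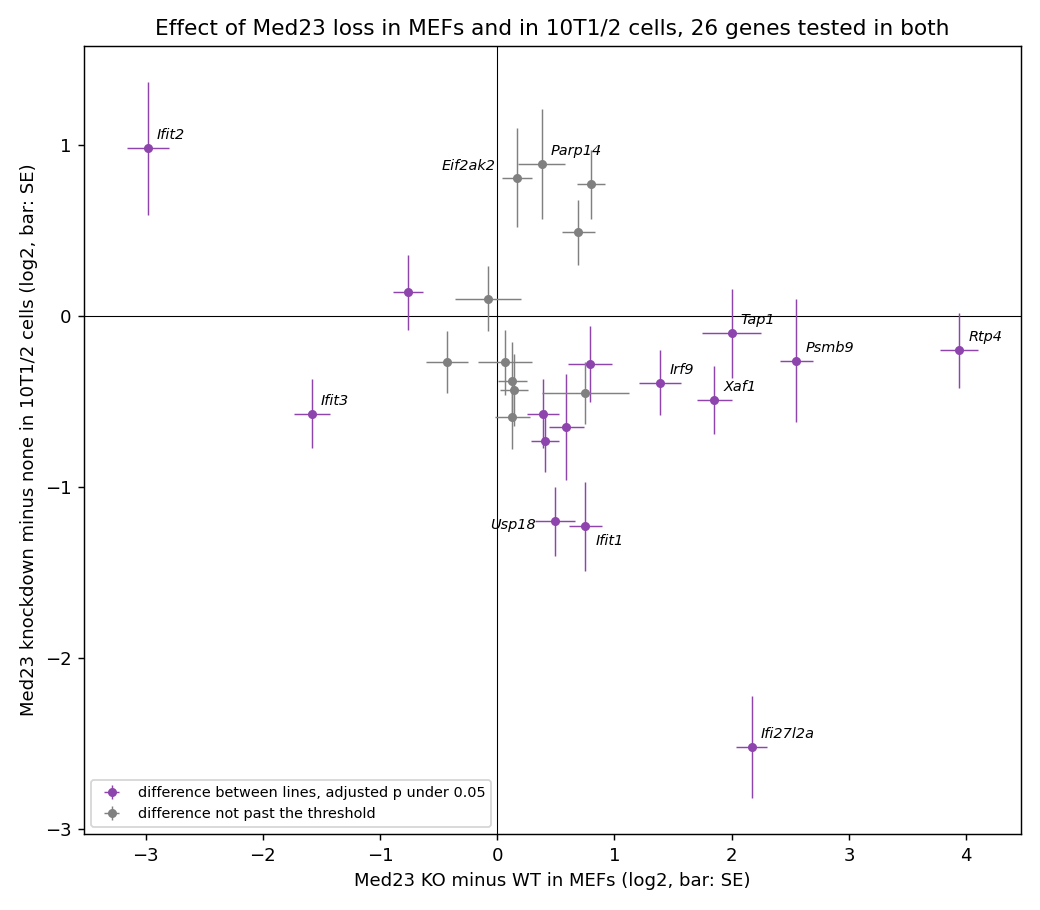
Effect of Med23 loss on the 26 members tested in both lines, as KO minus WT in MEFs (horizontal, log2) against knockdown minus none in 10T1/2 cells (vertical, log2), with SE bars. Purple marks members whose effect differed between lines at an adjusted p below 0.05, and Ifi27l2a (2.17, -2.52) and Ifit2 (-2.98, 0.98) lie in opposite corners.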

How the data were processed

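Biotin-labelled cRNA of 10 samples was hybridised to Affymetrix arrays, per the labels' protocols. The authors deposited log2 expression values, 1 for each of 45101 probe sets and array. RMA and MAS5 are named per the submitters' processing notes, without roles or versions, and the scale was read from the values. Of the probe sets, 34945 had 1 gene symbol, 932 several and 9160 none, 64 were controls, and 34741 were matched by Entrez identifier to RefSeq (GRCm38.p6). Additive models (genotype and serum time; MAL and knockdown; line, time, MAL, Med23 loss and its interaction with line) were fitted with limma 3.58.1 (lmFit, eBayes) in R 4.3.3 to genes whose highest value exceeded the median of all probe sets, with Benjamini-Hochberg adjustment over all genes tested and a two-sided threshold of 0.05. Residual degrees of freedom were 2, 1 and 3. The fit was tested on simulated data. Members, lists and motifs were chosen with earlier results of these data known, and the GC box search, the Ifit1 stretch and the class I genes named for MAL after their values were seen. All 33 members were to be named, with the 6 largest KO changes of each pathway list. Arrays give no read depth, so their number limits precision.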

Additional observations from a re-analysis of the deposited data

Results flagged for a closer look

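The effect of Med23 loss differed between MEFs and 10T1/2 cells for 16 members by the test of the difference itself (limma, 10 arrays). The effect in 10T1/2 cells minus that in MEFs was -4.69 for Ifi27l2a, -4.14 for Rtp4, -2.81 for Psmb9, -2.34 for Xaf1, -2.10 for Tap1, -1.98 for Ifit1, -1.79 for Irf9, -1.69 for Usp18, -1.43 for Ifih1, -1.24 for Dhx58, -1.14 for Ifi35, -1.07 for Psmb8 and -0.96 for Irf7. It was 0.90 for Gbp3, 1.0 for Ifit3 and 3.96 for Ifit2. Every KO pair and every knockdown pair took opposite signs for Ifi27l2a, Ifi35, Irf7, Irf9, Usp18, Ifit1, Psmb8, Xaf1, Dhx58 and Ifit2. Ifih1 lay below the array medians on all 4 10T1/2 arrays. With levels below the array median raised to it, Dhx58, Gbp3 and Psmb8 no longer passed (adjusted p = 0.12, 0.164 and 0.0607). Psmb8 itself had no level below a median and kept its difference of -1.07. Its adjusted p moved with the fit over all genes, where limma's prior degrees of freedom went from 4.83 to 2.17.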

How the results depend on the processing

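The counts of members called kept their size within 1.5 times for KO against WT under quantile normalization, other filters, the mean over probe sets, a variance trend, raised low levels and no serum term (12 to 17). Leaving out 1 serum time or array gave 11 to 20, with 2332 to 4896 of all genes called beside 5018, and 2857 without the serum term. For 90 min of serum they were 3 or 4, and 0 to 2 with arrays left out, where all genes called fell from 1612 to between 0 and 869. For 30 min they were 0, with 1 under the variance trend (Irf1), while all genes called went from 30 to 59 with the trend, 13 with the mean over probe sets and 0 to 26 with arrays left out. For MAL the count was 0, with 9 after quantile normalization, 3 with the mean over probe sets and 3 with the variance trend, while all genes called went from 8 to 2014, 587 and 542. For the knockdown it was 0, with 5, 2 and 2 in that order, and 2472, 340 and 599 of all genes. In the 10T1/2 fit as deposited, 107 genes had a residual of 0 and limma's prior degrees of freedom were 3.83. After quantile normalization these were 25 and 14.5. For the difference between lines the counts were 13 to 18. No called member changed sign under an alternative. Of 1637 values of single members, 73 lost and 47 gained a call. In 10T1/2 cells no array could be left out, since no residual degree of freedom would remain. The labels give no replicate numbers to block on, and the MEF model already pairs WT and KO arrays by serum time.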

Other observations

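Cxcl10, a chemokine gene that interferons and NF-kB signalling raise, read 4.57 before serum and 8.34 and 8.57 after 30 and 90 min in WT MEFs, against 3.61, 3.85 and 4.29 in KO MEFs. The WT arrays with serum stood well above the one without, and the KO arrays lay near the array median, with 1 array for each level and no test of the difference between genotypes. At 90 min of serum, 8 of 64 further interferon-stimulated genes were lower and 0 higher, where 8.95% and 4.56% of all genes were.

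Some members departed from additive effects of MAL and knockdown in 10T1/2 cells. The response to MAL in knockdown cells minus that in cells without it was 1.5 for Ifit2, 1.39 for Psmb9, 1.17 for Parp14, 1.12 for Dhx58 and -1.05 for Ifi27l2a, with 4 single arrays behind each value and no test, and Parp14 lay below the array median on 2 of the 4. Dhx58 read 5.91 in the control and 4.29 to 4.70 on the other 3 arrays.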
